A study of Mus musculus with 8 samples.

Results

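The 6 genes Ahr, Arnt, Ahrr, Tiparp, Cyp1b1 and Cyp1a1 of the aryl hydrocarbon receptor pathway were followed in mouse cells given C28 for 3 h. They were chosen by gene symbol, as 6 of the 54232 gene rows of the expression table. They were picked with the C28 and DMSO values of these libraries already known, Cyp1b1 for its lower values with C28. Their difference between C28 and DMSO is therefore given as a description, without a test.

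RNA was sequenced from 3 libraries of cells given C28 for 3 h (named 028 in the sample labels) and from 3 libraries of control cells given the solvent DMSO. All are C57BL/6 cells labelled female germline stem cells (FGSC), mitotic germ cells of the ovary kept in culture, and C28 is known here only by its code name, with no dose in the labels. The replicate numbers 1 to 3 occur in both groups, and the labels do not say whether they mark separate cultures, so a p-value reflects the scatter among these libraries alone, and that scatter may be technical. The histone mark H3K27ac, found at active enhancers and promoters, was also profiled, with 1 C28 and 1 control library, and is not analysed here.

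AHR is a transcription factor of the bHLH-PAS family that waits in the cytosol with HSP90 and p23. When it binds a ligand, such as a dioxin, a polycyclic aromatic hydrocarbon or a tryptophan metabolite, it enters the nucleus, pairs with ARNT and binds DNA at sites with the core GCGTG. Its best known targets are the cytochrome P450 genes Cyp1a1 and Cyp1b1, and Ahrr and Tiparp, whose products feed back to restrain the receptor.

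The promoters of the 4 members known as receptor targets are shown because the receptor's core lies in each. Each covers 250 bases before to 50 bases from the start site, from RefSeq on GRCm38.p6. Capitals mark the core, read as GCGTG on the gene's strand or as CACGC where it lies on the other strand.
Cyp1b1 chr17:79715012-79715311 (- strand): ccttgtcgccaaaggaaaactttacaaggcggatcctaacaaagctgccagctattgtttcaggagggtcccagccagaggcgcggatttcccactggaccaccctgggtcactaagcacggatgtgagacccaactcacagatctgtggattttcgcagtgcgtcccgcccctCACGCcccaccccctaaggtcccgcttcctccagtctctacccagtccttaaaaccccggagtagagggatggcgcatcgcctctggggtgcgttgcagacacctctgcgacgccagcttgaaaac
Cyp1a1 chr9:57697363-57697662 (+ strand): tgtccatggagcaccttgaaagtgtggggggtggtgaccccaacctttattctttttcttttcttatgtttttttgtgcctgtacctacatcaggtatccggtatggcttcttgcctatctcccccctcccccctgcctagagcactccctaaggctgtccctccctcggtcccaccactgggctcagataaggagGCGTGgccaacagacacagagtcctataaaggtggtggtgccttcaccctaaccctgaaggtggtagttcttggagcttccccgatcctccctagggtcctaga
Ahrr chr13:74292282-74292581 (- strand): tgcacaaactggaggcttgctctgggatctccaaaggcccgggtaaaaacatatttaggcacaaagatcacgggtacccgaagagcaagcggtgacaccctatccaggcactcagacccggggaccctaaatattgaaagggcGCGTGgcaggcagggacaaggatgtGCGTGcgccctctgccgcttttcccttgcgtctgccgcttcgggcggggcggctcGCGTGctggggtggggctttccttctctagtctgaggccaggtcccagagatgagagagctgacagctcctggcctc
Tiparp chr3:65528197-65528496 (+ strand): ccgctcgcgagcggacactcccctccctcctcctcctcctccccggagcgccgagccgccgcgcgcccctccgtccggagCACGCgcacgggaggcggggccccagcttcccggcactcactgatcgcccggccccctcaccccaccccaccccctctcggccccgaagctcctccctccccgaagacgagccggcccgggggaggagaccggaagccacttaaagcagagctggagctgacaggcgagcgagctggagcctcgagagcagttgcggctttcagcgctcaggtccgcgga

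Ahrr held 3 cores, at positions -107, -82 and -27 from the start site. Cyp1b1 held 1 at -76 on the other strand, Cyp1a1 1 at -54 and Tiparp 1 at -170 on the other strand. Arnt, the partner, held 1 at -29, and the table has no entry for Ahr. The core was present on either strand in 32.4% of 32851 promoters of the same length, so a single match is common, and 11.1% held 2 or more. The longer motif TNGCGTG, which contains the core, was found in Ahrr alone of the 5 members with an entry and in 5.07% of all promoters. Of 9 other target genes with an entry, from the list of targets described below, 3 held the core. A match is a description of the letters and not a measured binding site, and distal enhancers, where sites of Cyp1a1 and Cyp1b1 are known, lie outside these windows.

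The 3 C28 libraries held 16930212 to 17428321 gene reads and the 3 DMSO libraries 18613916 to 19197376. Of 12 germ cell markers, 3 (Dppa3, Pou5f1 and Zp3) had 0 reads in all 6 libraries and 4 averaged 10 or more normalized counts, that is, reads divided by a size factor for each library. The highest of those 4 were Kit (mean of 20987 over the 6 libraries), Tex14 (526) and Ifitm3 (201), and the last was Dnd1 (32.7), at 22 to 47 reads per library. Ddx4, a germ cell helicase, chosen for mention after its values were seen, had 0, 1 and 1 reads in the C28 libraries and 0, 0 and 2 in the DMSO libraries. Ddx4 and the 3 genes without reads were thus at or near 0 in cells that carry a germ cell label, whereas Dnd1 and Tex14 were not. Of 12 mast cell markers 7 averaged 10 or more, led by Gata2 (23743), Kit and Cpa3 (6753), whereas Fcer1a and Tpsb2 had 0 reads. Of 10 other leukocyte markers 4 did, led by Ptprc (7527), Adgre1 (1348) and Cd68 (409), with Ncr1 at 0 reads. In the endothelial, ovarian somatic and hepatocyte lists 1 of 6, 3 of 8 and 0 of 4 did. Foxl2, Cyp19a1, Apoa1, Ttr and Fgb had 0 reads. A reading of 0 in 1 library allows up to 3 reads there, counting error only, and 0 in all 6 libraries sets a tighter bound.

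Ahr (ENSMUSG00000019256), the receptor itself, was at 178, 90.1 and 175 normalized counts in C28 replicates 1, 2 and 3, against 177, 155 and 135 in DMSO replicates 1, 2 and 3. The C28 values spanned the whole DMSO range, and C28 replicate 2 was the lowest of the 6 libraries. The group means were 148 ± 49.96 with C28 and 156 ± 20.9 with DMSO (SD, n = 3 each), and the log2 fold change of C28 over DMSO was -0.13 ± 0.28 (SE, from a limma fit over all genes). Within same-numbered pairs the ratio was 1.01, 0.581 and 1.30, so the pairs did not share a direction.

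Arnt (ENSMUSG00000015522), the partner of AHR and also of the hypoxia factors, was at 1374, 1086 and 1197 normalized counts in C28 replicates 1 to 3, against 1261, 1244 and 1256 in DMSO replicates 1 to 3. The DMSO libraries were nearly equal, and the C28 libraries lay on both sides of them. The log2 fold change was -0.05 ± 0.10 (SE). A second fit took the replicate number as a block, so that C28 was compared with DMSO inside each same-numbered pair. There the SE was 0.07.

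Ahrr (ENSMUSG00000021575), the receptor's repressor, which competes with AHR for ARNT, was low, with 29 to 34 reads per C28 library and 37 to 55 per DMSO library. It was at 35.3, 34.3 and 29.8 normalized counts in C28 replicates 1 to 3, against 51.4, 41.9 and 35.4 in DMSO replicates 1 to 3. The groups did not overlap, but the highest C28 library and the lowest DMSO library were nearly level. The spread between libraries was a coefficient of variation of 8.83% with C28 and 18.8% with DMSO, and counting error alone gives 17.8% and 14.9%. The log2 fold change was -0.35 ± 0.24 (SE).

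Tiparp (ENSMUSG00000034640), a mono-ADP-ribosyltransferase that modifies AHR and lowers its activity, was at 722, 552 and 568 normalized counts in C28 replicates 1 to 3, against 1081, 653 and 712 in DMSO replicates 1 to 3. Replicate 1 was the highest library of each group, and C28 replicate 1 lay above both lower DMSO libraries, so the groups overlapped. Inside the pairs C28 was lower each time, at 0.668, 0.845 and 0.799 of its DMSO partner. The log2 fold change was -0.38, with an SE of 0.20 without the block and 0.08 with it. Without DMSO replicate 1 it was -0.16, and without DMSO replicate 2 it was -0.52.

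Cyp1b1 (ENSMUSG00000024087), a cytochrome P450 that oxidises polycyclic aromatic hydrocarbons and oestradiol, was at 74.7, 220 and 344 normalized counts in C28 replicates 1 to 3, against 177, 620 and 892 in DMSO replicates 1 to 3. Each C28 library was lower than its same-numbered DMSO library, at 0.423, 0.355 and 0.386 of it. The groups nevertheless overlapped, since C28 replicates 2 and 3 lay above DMSO replicate 1. The same rank order, replicate 1 below 2 below 3, held in both groups.

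Cyp1b1 averaged 213 ± 135 normalized counts with C28 and 563 ± 361 with DMSO (SD, n = 3 each), a log2 fold change of -1.36 (0.388-fold). Its SE was 0.70 without the block and 0.09 with it. Leaving out 1 library at a time without the block moved the log2 fold change to between -2.05 (without DMSO replicate 1) and -0.74 (without C28 replicate 1). Leaving out a whole pair in the fit with the block moved it only to between -1.43 and -1.30. The authors' deposited table lists a log2 fold change of -0.13 for Cyp1b1 and -0.26 for Tiparp, in the reverse order of size. DESeq2 without a block, on the read counts, gave -1.40 for Cyp1b1 and -0.41 for Tiparp. How the deposited fold change was computed was not established here. It may be an unlike measure, so its sizes are not compared with those here.

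**Figure D1:**
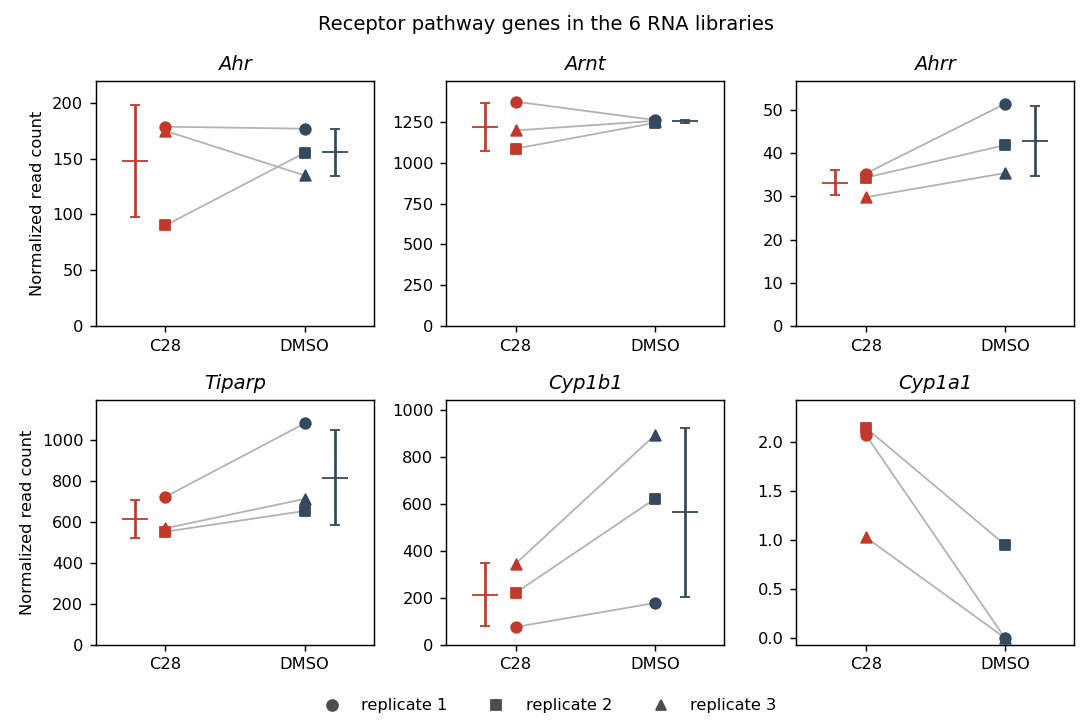
Normalized read counts (vertical axes) of the 6 members in each C28 library (left) and DMSO library (right); symbols mark the replicate number, lines join same-numbered libraries, and bars show mean ± SD (n = 3), left out for Cyp1a1. The 3 lines of Cyp1b1 all slope the same way although C28 replicates 2 and 3 lie above DMSO replicate 1.

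Cyp1a1 (ENSMUSG00000032315), the classic induced target of AHR, was barely detected. Its reads numbered 2, 2 and 1 in C28 replicates 1 to 3, against 0, 1 and 0 in DMSO replicates 1 to 3. The sums of 5 reads with C28 and 1 read with DMSO have exact 95% Poisson intervals of 1.62 to 11.7 and 0.0253 to 5.57 reads, which overlap, and no fold is given since every library was at or under 3 reads. All 6 members passed the filter on low values (3 or more libraries at 1 or above), Cyp1a1 only through its C28 libraries.

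In all, 3 members (Cyp1b1, Tiparp and Ahrr) were lower with C28 in 3 of 3 pairs, as were 18.8% of all 19087 genes tested. The groups did not overlap for Ahrr, lower with C28, as for 6.5% of all genes tested. Cyp1a1 was higher in 3 of 3 pairs with groups that did not overlap, but it passed the filter only through its C28 libraries and so had to differ. In reads its groups touched, with 1 read each in C28 replicate 3 and DMSO replicate 2. A single read is worth 1.03 to 1.07 normalized counts in the C28 libraries and 0.93 to 0.96 in the DMSO libraries. The filter at 1 thus passes a single read with C28 and not with DMSO. Over all genes tested 20.6% were higher in 3 of 3 pairs, and 14.6% had groups that did not overlap (8.15% higher with C28). These shares are a background only, because the members were chosen on the same values. Over the 6 libraries Ahrr and Tiparp had a Pearson correlation of 0.85 on the log2 scale, while the correlation of Cyp1b1 with the other 4 tested at 10 or more counts lay between -0.29 and -0.08. These describe 6 libraries that share 3 replicate numbers.

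**Figure D2:**
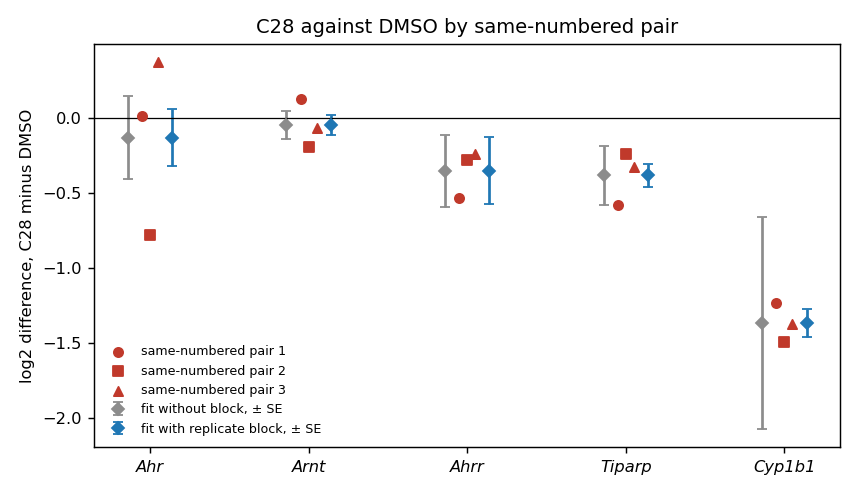
Log2 difference of C28 minus DMSO (vertical axis) for 5 members; red symbols are the 3 same-numbered pairs, grey diamonds the estimate ± SE without a block and blue diamonds with the replicate block. The 3 pairs of Cyp1b1 lie between -1.49 and -1.23, and those of Ahr lie between -0.78 and 0.37.

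The spread of Cyp1b1 followed the replicate number. Replicate 1 was at 0.265 of the mean of replicates 2 and 3 with C28 and at 0.234 of it with DMSO. The coefficient of variation was 63.4% with C28 and 64.1% with DMSO, where counting error alone gives 7.0% and 4.11%. Tiparp ran the other way, with replicate 1 at 1.29 times the mean of the others with C28 and 1.58 times with DMSO.

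Fibroblasts and the feeder cells used under germline cultures express Cyp1b1 in many tissues, so 19 fibroblast and feeder cell genes were read beside it. Their summed level was 2570, 3520 and 5849 normalized counts in C28 replicates 1 to 3, against 2419, 4312 and 5942 in DMSO replicates 1 to 3. Replicate 1 was thus lowest in both groups, as for Cyp1b1, and 12 of the 17 tested genes had replicate 1 lowest in both groups. The share of all genes with replicate 1 lowest in both groups was not counted. Over the better covered genes replicate 1 differed most, with a mean chi-square per gene of 23.6 to 29.0 against replicates 2 and 3. Between replicates 2 and 3 it was 5.23 to 5.88. Outside the list, Adgre1 and Cd68 were also lowest in replicate 1 of both groups, and Kit and Ptprc were highest there. The fibroblast and feeder list was led by Fn1 (1594 over the 6 libraries), Dcn (1353) and Pdgfrb (160), and none of the 19 was at 0 in all libraries.

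The C28 to DMSO ratio of the list's sum was 1.06, 0.816 and 0.984 in pairs 1, 2 and 3, beside 0.423, 0.355 and 0.386 for Cyp1b1. Most of that sum comes from Fn1 (log2 fold change 0.01) and Dcn (0.08), so it follows them more than the other genes. Of the 17 tested genes 13 had a log2 fold change below 0. Cyp1b1 came to 2.91%, 6.25% and 5.89% of that sum in C28 replicates 1 to 3, against 7.31%, 14.4% and 15.0% in DMSO replicates 1 to 3. These ranges did not overlap, but Cyp1b1 was picked for its lower values with C28, so their separation is a description only. How many other genes separate by the same ratio was not counted. Of the 17 tested genes 1, Col3a1, at 1 to 9 reads per library, had a fold as low as that of Cyp1b1, and 9 were lower with C28 in 3 of 3 pairs, beside 18.8% of all genes tested. Without the block limma called 0 of the 17, with 2 at an unadjusted p under 0.05, 0 by edgeR and 0 by DESeq2, and a median log2 fold change of -0.28. With the block 2 of the 17 fell, beside 2.25% of all genes tested, Thbs1 (0.456-fold, limma adjusted p 0.00928) and Pdgfrb (0.674-fold, limma adjusted p 0.0353). In bulk RNA, fewer cells of a type and less RNA per cell cannot be told apart, and the part of feeder or fibroblast content in the Cyp1b1 difference was not tested beyond these values.

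**Figure D3:**
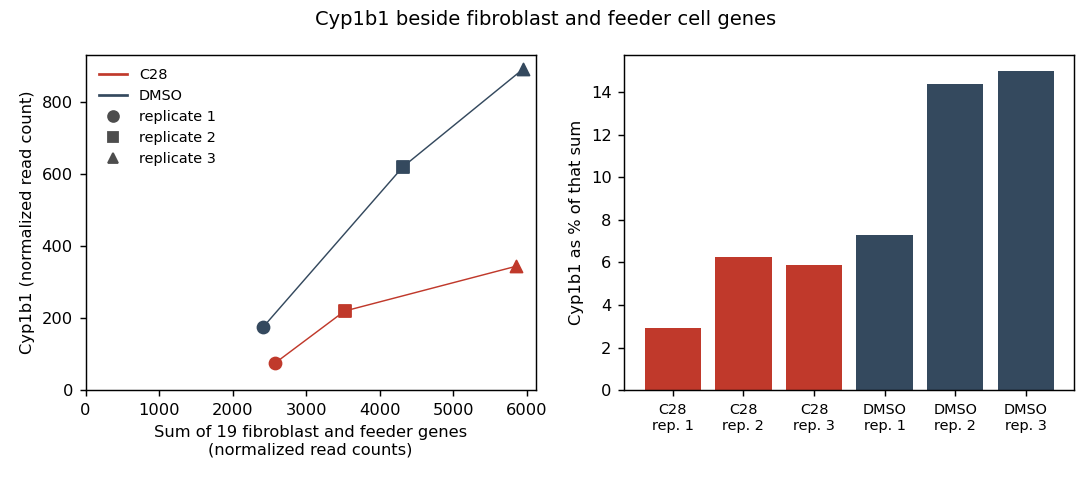
Left, Cyp1b1 against the summed level of 19 fibroblast and feeder genes, both in normalized read counts, in the 6 libraries (lines join libraries of a group). Right, Cyp1b1 as a percent of that sum, which was 2.91% to 6.25% in the C28 libraries and 7.31% to 15.0% in the DMSO libraries.

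The pattern of Cyp1b1 over the 6 libraries was compared with that of the genes averaging at least 50 normalized counts. The highest Pearson correlations on the log2 scale belonged to Chd3os (0.995), the splicing factor Sf3b2 (0.995), Strn4 (0.993), Ptcd2 (0.991) and Wbp11 (0.991). These genes followed the order of Cyp1b1 but moved far less: the pair ratios of Sf3b2 were 0.954, 0.952 and 0.957, and those of Chd3os, an antisense gene whose reads may not be told apart from its partner's, 0.766, 0.776 and 0.792. The lowest correlations belonged to Pck2, the mitochondrial enzyme that makes phosphoenolpyruvate (-0.999), Ghitm (-0.998) and Avl9 (-0.992). Pck2 was at 3414, 2304 and 2034 normalized counts in C28 replicates 1 to 3, against 2571, 1641 and 1501 in DMSO replicates 1 to 3, the mirror of Cyp1b1 in both the replicate order and the direction.

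For the other members the closest genes were Dnajc17 (0.995), Glrx (0.977) and Tstd3 (0.975) for Ahr, and Nlgn2 (0.993), Foxp4 (0.985) and Pfkm (0.983) for Arnt. They were Gm16286 (0.987), Ube2c (0.983) and Immp2l (0.979) for Ahrr. For Tiparp they were Arrb1 (0.992), Slc18a2 (0.989) and Cmtr2 (0.988). These are the extremes of 10578 candidates over 6 libraries and are given as a description.

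The rest of the pathway was read from 7 lists that hold 71 genes, of which 60 passed the filter. Without the block limma with Benjamini-Hochberg adjustment over all 19087 genes called 0 of the 60, where 0.136% of all genes were called (0.121% higher and 0.0157% lower with C28). Of the 60, 9 lay at an unadjusted p under 0.05, edgeR called 0 and DESeq2 called 4, Nqo1, Hsp90aa1, Cyb5a and Slc7a5. With the replicate block 8 of the 60 were called, beside 4.79% of all genes: 6 rose, beside 2.54% of all genes, and 2 fell, beside 2.25%. The median log2 fold change was 0.03 over the 60 genes and 0.00 over all genes.

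In the cytosolic complex that holds AHR, 2 of 5 tested genes rose with the block, beside 2.54% of all genes tested. Hsp90aa1, the heat-inducible form of HSP90, was at 58577, 63714 and 58798 normalized counts in C28 replicates 1 to 3, against 45109, 46943 and 47150 in DMSO replicates 1 to 3. That is a 1.30-fold rise (log2 fold change 0.38 ± 0.04 SE with the block), with a limma adjusted p of 0.000631, against 0.0956 when the block was left out. Ptges3, the co-chaperone p23, averaged 6116 ± 501 with C28 and 5374 ± 300 with DMSO (SD, n = 3 each), a 1.14-fold rise with the block (adjusted p 0.0335 by limma, against 0.638 in the fit that lacks the block). Hsp90ab1, the constitutive form, was at 111950 ± 4682 with C28 and 103262 ± 3466 with DMSO and did not pass in either limma fit (adjusted p 0.159 with the block).

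Among 11 tested of 15 other genes described as AHR targets, 2 rose with the block and 0 fell, beside 2.54% and 2.25% of all genes tested. Nqo1, a quinone reductase that is also a target of the antioxidant factor NRF2, was at 141, 197 and 247 normalized counts in C28 replicates 1 to 3, against 67.3, 59.9 and 88.0 in DMSO replicates 1 to 3. The groups did not overlap, and the pair ratios were 2.10, 3.29 and 2.80 (log2 fold change 1.41 ± 0.15 SE with the block). The limma adjusted p was 0.000601 in that fit and 0.143 when the block was left out. Slc7a5, an amino acid transporter subunit that is also a target of ATF4, averaged 11007 ± 263 with C28 and 9119 ± 323 with DMSO, a 1.21-fold rise with the block (adjusted p 0.00669 by limma, against 0.217 in the fit that lacks the block). Nqo1 was higher with C28 in 3 of 3 pairs, as were 20.6% of all genes tested, and Cyp1b1 was lower in 3 of 3, as were 18.8%. Ugdh was at 1997 ± 199 with C28 and 2010 ± 185 with DMSO, and Gsta1, Gsta2 and Cyp2s1 had 0 reads in all 6 libraries. Reads of Ugt1a6a and Ugt1a6b, which share exons, may have been split between them, and neither passed.

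Cytochrome P450 enzymes of the endoplasmic reticulum take electrons from POR and cytochrome b5. Both genes rose with the block, 2 of 4 redox partners tested, beside 2.54% of all genes tested. Cyb5a was at 3219, 3592 and 2912 normalized counts in C28 replicates 1 to 3, against 1927, 2498 and 2239 in DMSO replicates 1 to 3 (1.46-fold). Its adjusted p by limma was 0.000937 with the block, and 0.228 in the fit that lacks it. Por averaged 2534 ± 74.8 with C28 and 2048 ± 194 with DMSO (1.24-fold), with adjusted p-values by limma of 0.0147 in the blocked fit and 0.375 in the other. Pgrmc1, a P450-binding protein, was at 4430 ± 187 with C28 and 4032 ± 138 with DMSO and did not pass.

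Among 13 coregulators tested, 0 rose with the block, beside 2.54% of all genes tested. Ncor1, a co-repressor, was at 19324 ± 516 normalized counts with C28 and 17544 ± 1137 with DMSO (SD, n = 3 each), and Smarca4, a chromatin remodelling ATPase, at 4230 ± 397 with C28 and 4676 ± 459 with DMSO. Neither passed in either limma fit.

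In the list of TIPARP relatives and of enzymes that remove ADP-ribose, 1 of 10 fell with the block and 0 rose, beside 2.25% and 2.54% of all genes tested. Parp16, an ADP-ribosyltransferase of the endoplasmic reticulum, was at 254, 249 and 238 normalized counts in C28 replicates 1 to 3, against 375, 321 and 304 in DMSO replicates 1 to 3 (0.745-fold), with an adjusted p by limma of 0.0244 in the blocked fit and 0.393 in the other. Parg, which removes poly-ADP-ribose, was at 1099 ± 10.4 with C28 and 1179 ± 36.2 with DMSO, and Parp10, a mono-ADP-ribosyltransferase, at 290 ± 11.9 with C28 and 327 ± 16.2 with DMSO, and neither passed.

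Among 9 tested of 13 other bHLH-PAS genes and 8 tested of 11 enzymes of tryptophan breakdown, which makes receptor ligands, 0 passed in either limma fit, with 0 at an unadjusted p under 0.05 without the block, 0 by edgeR and 0 by DESeq2. Hif1a averaged 2949 ± 477 with C28 and 2903 ± 680 with DMSO, and Arntl2 1360 ± 114 with C28 and 1536 ± 58.2 with DMSO. Kyat3, which makes kynurenic acid, was at 416 ± 96.2 with C28 and 424 ± 43.2 with DMSO, and Haao at 119 ± 53.6 with C28 and 127 ± 65.1 with DMSO. Ido1, Kynu and Aadat, as well as Sim1, had 0 reads in all 6 libraries.

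The 8 calls with the block rested unequally on the pairs. With pair 2 left out, 1 of the 8 was called by limma, and Cyb5a (adjusted p 0.092), Nqo1 (0.0642) and Hsp90aa1 (0.162) no longer passed. With pair 3 left out 3 of the 8 were called, Cyb5a and Nqo1 among them. With pair 1 left out Parp16 did not pass (limma adjusted p 0.0843) and the other 7 did.

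**Figure D4:**
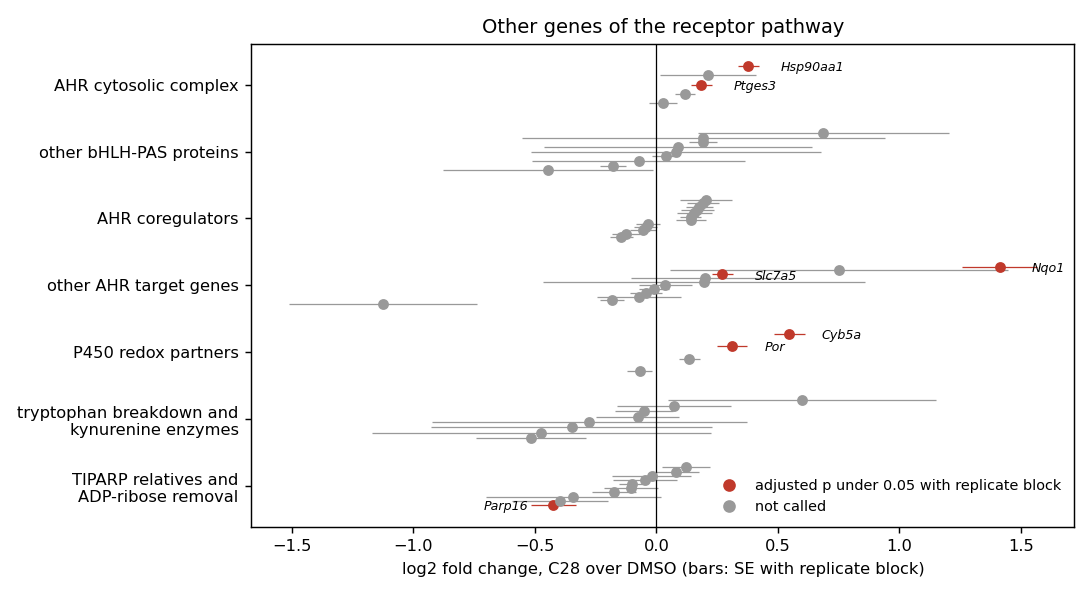
Log2 fold change of C28 over DMSO (horizontal axis) for tested genes of the 7 pathway lists, with bars of 1 SE from the fit with the replicate block; red marks genes with an adjusted p under 0.05 in that fit. The red genes run from Parp16 at -0.42 to Nqo1 at 1.41.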

How the data were processed

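RNA was measured in 3 C28 and 3 DMSO libraries, grouped and numbered by their titles. The deposited values are on a signal scale: gene read counts divided by the authors by 1 size factor per library, as the values show, since 100% of them come out whole, to within 0.01, once expressed in reads. The submitters' processing notes name mm9, Bowtie2 and Cufflinks 2.2.1. The sources used here do not give the counting tool or any use of strand, and 2 RNA library kits are named, so a gene and an overlapping antisense partner may share reads. The authors' deposited log2 fold change is quoted for 2 members, and the authors' adjusted p-value is not used.

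The 19087 genes with 3 or more libraries at 1 or above entered limma 3.58.1 (R 4.3.3) as log2(value + 1), with an intensity trend, Benjamini-Hochberg adjustment over all genes and calls under 0.05. On that scale, which fold changes keep, the change of low genes is understated. The script was tested on simulated counts that held no replicate effect, so that test does not give the error rate of either fit on these libraries. Recovered reads were tested with edgeR 4.0.16 and DESeq2 1.42.0 as alternatives. The peak lists were not used, because their build differs from that of the gene table at hand (GRCm38.p6).

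Same-numbered libraries deviated together from their group means over 10578 genes averaging at least 50, with correlations of 0.84, 0.68 and 0.70, so the numbers were taken as pairs from the data. No label states the pairing, and for replicate 3 the correlation with another number reached 0.54. The members and lists were chosen with earlier results of these data known. The genes named are the 6 members, in each pathway list those called and the 2 with the highest mean, those most like each member, and in the marker lists the 3 highest and those at 0. Ddx4, Dnd1, Thbs1, Col3a1 and the genes Ugt1a6a and Ugt1a6b were named after their values were seen. Of the genes the rule names, 2 are not reported here, and the plot of the pathway lists leaves out 1 of them.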

Additional observations from a re-analysis of the deposited data

How the results depend on the processing

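Over all genes limma called 26 without a block and 914 with the replicate block, and the block also moved the pathway genes from 0 called to 8. Leaving out 1 library without the block gave 0 to 23 genes (1207 at an unadjusted p under 0.05 for the count of 0, without C28 replicate 2) and 0 pathway genes each time, and leaving out pair 1, 2 or 3 with the replicate block gave 854, 47 and 191 genes and 9, 1 and 3 pathway genes. DESeq2 called 182 genes and 4 pathway genes without a block, and, chosen after seeing the data, 740 and 7 with it, and edgeR with the block called 1354 and 11. Other pseudocounts, filters and scaling, and edgeR without a block, kept both counts within 1.5 times.

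The log2 fold changes of Cyp1b1, Tiparp and Ahrr kept their direction in all 19 alternatives. They ran from -2.05 to -0.74, from -0.52 to -0.16 and from -0.48 to -0.21. Of these alternatives, the replicate block over all 6 libraries and the other filters cannot change a gene's fold. The rest reuse the same libraries, so the 19 are not separate support for the direction. The log2 fold changes of Ahr and Arnt lay on both sides of 0, from -0.38 to 0.19 and from -0.14 to 0.03. All 5 moved by less than 1 SD between replicates. Leaving out 1 of 3 libraries in a group cannot move a fold that far, so for those alternatives the limit does not measure stability. For Cyp1a1, at 3 or fewer reads in every library, no fold is reported. The motif TNGCGTG left 1 of 5 member promoters with a match, where the core gave 5. The number of genes with a Pearson correlation of at least 0.95 with Cyp1b1 was 179, and 129 by Spearman's rank correlation. With 6 libraries and no ties, that rank cut admits only genes in the same order as Cyp1b1, so the cuts are unlike. The alternatives for H3K27ac peaks were not run. Depth limits Ahrr, at 29 to 55 reads per library, and Cyp1a1.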
